A study of Mus musculus with 63 samples.

Results

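The comparison described here is an interaction. It asks by how much the effect of deleting the Meteor promoter in mouse embryonic stem cells depended on the culture medium. The effect is pKO minus WT, and the interaction is that effect in serum minus the same effect in 2i, on the log2 scale. A positive value means that pKO minus WT was higher in serum than in 2i. Its members are 24 of the 63 libraries of the series: 3 libraries each of 2 lines labelled as Meteor promoter knockouts (pKO1, pKO2) and of 2 wild-type lines (WT1, WT2), in each medium. All lines are of the R1 stem cell line. The serum medium held 15% fetal calf serum with 10 ng/ml LIF. The 2i medium held the MEK inhibitor PD 0325901 at 1 µM, the GSK3 inhibitor CHIR 99021 at 3 µM and LIF at 10 ng/ml, on another basal medium and supplement mix. Cells of every group grew on mouse embryonic fibroblast feeders, so RNA of feeder cells may be part of every library. The labels do not say whether a line is 1 clone, whether both alleles were edited, or whether the 3 libraries of a line came from separate cultures. The p-values below measure the spread between libraries of a line, which may be technical, and not the spread between lines.

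Meteor is a long non-coding RNA transcribed beside Eomes, which encodes a T-box transcription factor of the primitive streak and of early mesoderm and endoderm. In 2i, blocked MEK signalling and stabilised beta-catenin hold stem cells in a uniform naive state with low DNA methylation. In serum with LIF the same cells are heterogeneous: some are naive, others lean towards the epiblast or the primitive streak, and a few pass through a transient state with transcripts of the 2-cell embryo. Bulk libraries average over these cells, so a change in the number of cells of a type and a change in RNA per cell cannot be told apart.

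Total counts ran from 7738058 to 14716561 per library. The 8 stem cell markers were all detected, with summed levels of 3001 to 5007 CPM (a gene's counts scaled to the library total) in pKO serum and 2814 to 3716 CPM in WT serum libraries, and of 4850 to 5743 CPM in pKO 2i and 4513 to 5395 CPM in WT 2i libraries. The 24 feeder fibroblast genes summed to 2491, 7988 and 14260 CPM (lowest, median and highest) in pKO serum libraries and to 3000, 4879 and 5949 CPM in WT serum libraries. In 2i they summed to 706, 1550 and 2221 CPM in pKO and to 933, 1466 and 1798 CPM in WT libraries. The sum was higher in serum than in 2i, and in serum its median was higher in pKO than in WT libraries. Its genes did not move alike: Acta2 had medians of 1555 CPM in pKO serum and 1008 CPM in WT serum, against 45.8 CPM in pKO 2i and 44.1 CPM in WT 2i libraries. Col3a1 had medians of 96.7 CPM in pKO serum and 55.5 CPM in WT serum, against 100.4 CPM in pKO 2i and 87.5 CPM in WT 2i libraries.

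No row of the deposited tables is named Meteor. Platr11, the annotated non-coding RNA beside Eomes, was used to check the labels, though no source used here states that it is the same transcript. It had 0 to 0.22 CPM in pKO serum against 6.1 to 12.4 CPM in WT serum libraries, and 0 to 0.267 CPM in pKO 2i against 22 to 27 CPM in WT 2i libraries. The pKO lines kept 0.793% of the WT level in serum (95% exact interval 0.257 to 1.86, counting error only) and 0.32% in 2i (0.104 to 0.749). With 5 counts left in each medium, its interaction of 1.14 ± 1.15 (SE) has no firm size (adjusted p = 0.675).

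Eomes itself fell in the pKO lines in each medium, by amounts that could not be told apart. In serum it had 16.6, 22.3 and 29.2 CPM (lowest, median and highest of 6 libraries) in pKO and 28.7, 47.8 and 70.9 CPM in WT cells. In 2i it had 6.94, 8.5 and 10.2 CPM in pKO and 11.4, 16.7 and 21.8 CPM in WT cells. The pKO and WT libraries overlapped slightly in serum and did not overlap in 2i. The log2 effect was −1.10 ± 0.17 in serum and −0.98 ± 0.18 in 2i. Their difference was −0.13 ± 0.25, with a 95% interval of −0.64 to 0.39 (adjusted p = 0.851), so an interaction larger than that interval was not seen, and its sign changed with the lines and libraries used. The neighbours Cmc1 (0.30 ± 0.16) and Golga4 (−0.14 ± 0.14) did not pass the test, and the sign of Golga4 turned when pKO1 was the only deletion line (0.10).

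Of 14858 genes tested, 320 (2.15%) passed the interaction test at an adjusted p of 0.05. Of these, 185 (1.25%) were higher and 135 (0.909%) were lower, and 115 and 62 of them exceeded a 2-fold interaction. The median over all genes tested was 0.038, and 8092 values were positive. Counts of list or family members given below stand against these shares. The fit had no replicate block. With a block within each medium 1679 genes passed, so genes said below not to pass may pass with it. By comparison, 1725 genes (11.6%) passed for the deletion effect in serum and 539 (3.63%) in 2i. Among the 185 higher genes, 95 passed in serum only, 55 in 2i only, 12 in both with opposite signs, 1 in both with the same sign and 22 in neither. Among the 135 lower genes the counts were 88, 26, 9, 1 and 11. The fitted effects had opposite signs in the 2 media for 162 of the 185 higher genes and for 107 of the 135 lower genes.

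**Figure D1:**
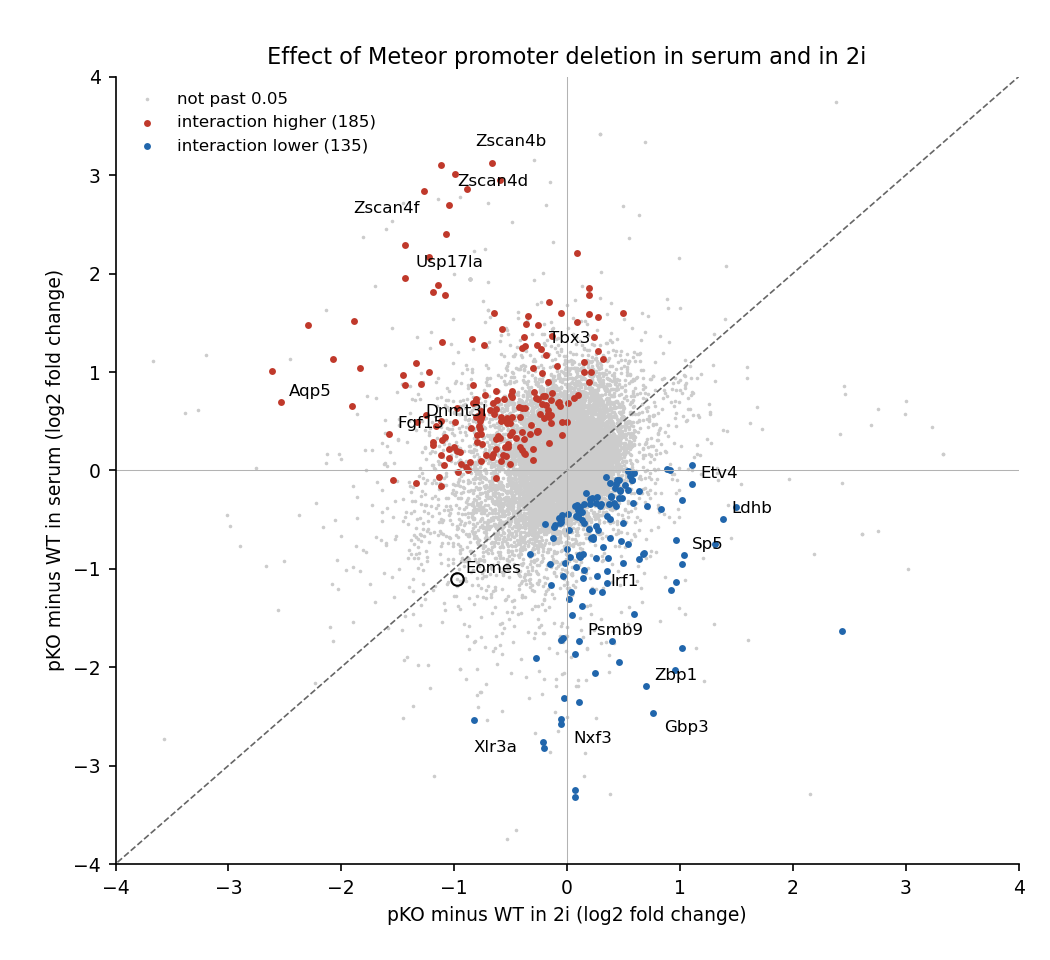
Each point is 1 gene, placed by its log2 fold change of pKO over WT in 2i (horizontal axis) and in serum (vertical axis). Genes past an adjusted p of 0.05 in the interaction are red (185, higher in serum than in 2i) or blue (135, lower), the dashed line marks equal effects, the open circle is Eomes, and 23 genes lie outside the plotted range.

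Xlr3a and Nxf3, X-linked genes expressed in testis, fell in serum and not in 2i. Xlr3a, of a cluster of lymphocyte-regulated genes, had 0.581, 0.65 and 1.1 CPM in pKO serum and 3.85, 4.92 and 7.24 CPM in WT serum libraries. In 2i it had 33.4, 35 and 37.8 CPM in pKO and 34.3, 40 and 48.3 CPM in WT libraries. All pKO libraries lay below all WT libraries in serum, as for 1.96% of all genes tested, while the ranges overlapped in 2i. Its effect was −2.82 ± 0.19 in serum and −0.20 ± 0.13 in 2i, giving an interaction of −2.62 ± 0.23 (adjusted p = 7.78e-07). Nxf3, a relative of the mRNA export factor Nxf1, showed the same pattern. It had 0.38, 0.778 and 0.878 CPM in pKO serum, 2.4, 4.62 and 7.45 CPM in WT serum, 27.1, 37.1 and 40.4 CPM in pKO 2i and 20.9, 40.8 and 51.2 CPM in WT 2i libraries. Its interaction was −2.52 ± 0.25 (adjusted p = 5.3e-06). Both genes are low in serum and high in 2i in every line, and the step between media was −5.38 and −5.72 for Xlr3a in pKO1 and pKO2, against −2.83 and −3.04 in WT1 and WT2. For Nxf3 it was −5.42 and −5.83 in the pKO lines, against −3.12 and −3.09 in the WT lines. Xlr3a and Nxf3 passed in every alternative fit, including the fit with lines as the replicates (adjusted p = 0.0145 and 0.0161).

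In the list of X-linked Xlr, Rhox and testis genes, 4 of 23 tested members (17.4%) passed, where 2.15% of all genes did. All 4 were lower, and the list's median was −0.32. Besides Xlr3a and Nxf3 these were the testis antigen gene Ct55 (−2.55 ± 0.41, adjusted p = 0.00157) and Xlr3b (−1.63 ± 0.39, adjusted p = 0.0324). The call for Xlr3b was lost in 11 of the 24 fits that left out 1 library, and both calls were lost when WT1 was the only control line, at −2.77 for Ct55 and −1.90 for Xlr3b. Ct55 also lost its call with pKO1 as the only deletion line (−1.60) and with lines as replicates (−2.37). Of the 10 Xlr rows only Xlr3a and Xlr3b passed. Xlr3c had a positive value of 1.59 ± 0.54 (adjusted p = 0.133), and Xlr copies are close enough in sequence that the split of reads among them is uncertain. A further X-linked gene outside the list, the paraneoplastic antigen relative Pnma5, was chosen after its value was seen and had −2.30 ± 0.27 (adjusted p = 3.12e-05). Over the whole X chromosome 8 genes were higher and 8 lower of 572 tested, and the median was 0.

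**Figure D2:**
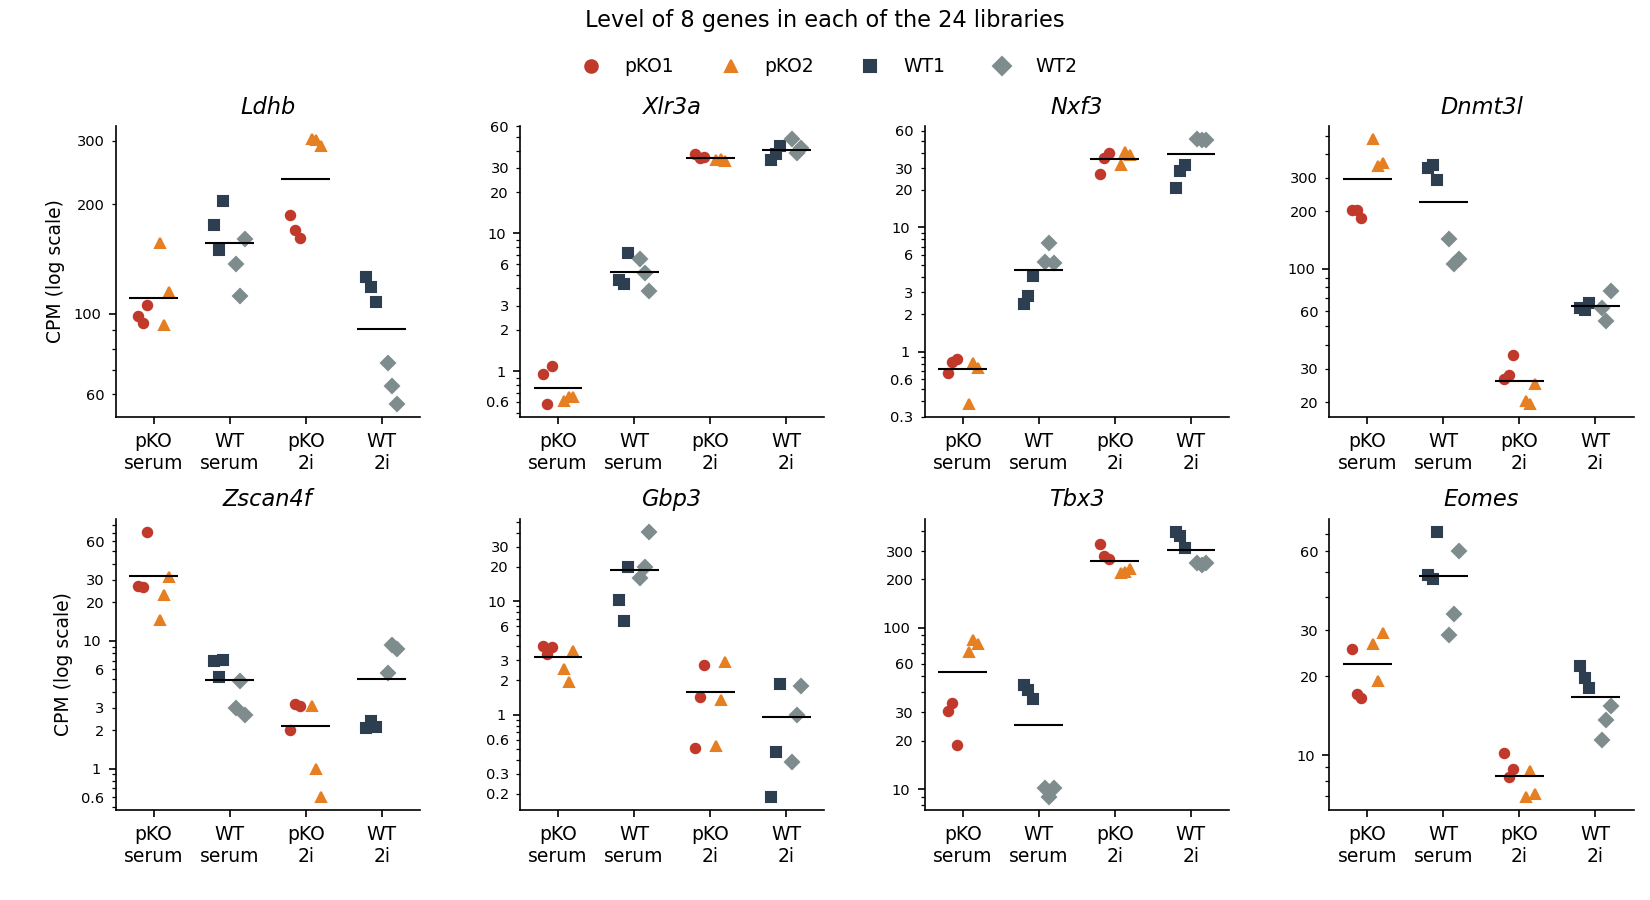
CPM on a log axis of 8 genes in each of the 24 libraries, by genotype and medium, with the line shown by symbol and a bar at the mean of 6 libraries. Xlr3a and Nxf3 were lowest in the pKO serum libraries, Ldhb changed in opposite directions in serum and 2i, and Eomes was lower in pKO in both media. Dnmt3l was lower in pKO in 2i, and its lines were mixed in serum.

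Among metabolic genes, Ldhb, the lactate dehydrogenase subunit that favours lactate use, moved in opposite directions in the 2 media. It had 92.9, 102 and 157 CPM in pKO serum and 112, 155 and 205 CPM in WT serum libraries, ranges that overlap. In 2i the pKO libraries, at 162, 238 and 303 CPM, all lay above the WT libraries, at 56.5, 90.3 and 126 CPM, as for 0.808% of all genes tested. Ldhb fell in serum (−0.50 ± 0.11, adjusted p = 0.00782) and rose in 2i (1.38 ± 0.12, adjusted p = 5.16e-07), and the interaction was −1.88 ± 0.16 (adjusted p = 7.78e-07). It too passed in every alternative, with lines as replicates at an adjusted p of 0.0199. Hk2, the hexokinase of the first step of glycolysis, rose in 2i (0.54 ± 0.07) and not in serum (−0.01 ± 0.07), with an interaction of −0.55 ± 0.10 (adjusted p = 0.00577). These were the 2 members of the hypoxia and glycolysis list that passed, of 25 (8%, against 2.15% of all genes tested). Atf4, the transcription factor of the amino acid stress response, had a similar course (0.54 ± 0.10 in 2i, −0.20 ± 0.10 in serum, interaction −0.75 ± 0.14). Mthfd2, a mitochondrial folate enzyme and an ATF4 target, had −0.49 ± 0.12. They were the only 2 of 20 members (10%) of the ATF4 and unfolded protein list that passed. Hk2, Atf4 and Mthfd2 lost their calls when WT1 was the only control line, at −0.50, −0.72 and −0.77, and Mthfd2 lost its call in 8 of 24 fits without 1 library.

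The largest positive values belonged to genes of the 2-cell-like state. Zscan4 proteins mark this state and act in telomere maintenance, Usp17l genes encode deubiquitinases, and Pramel genes encode leucine-rich repeat proteins of the early embryo. Where 1.25% of all genes tested were higher, 8 of 14 tested list members (57.1%) were, and none was lower. They were Zscan4a, Zscan4b, Zscan4c, Zscan4d, Zscan4f, Usp17la, Usp17le and Pramel7, and the list's median was 3.57. The list held 21 names, of which 18 had a row; Dux had none under that name, and Zfp352 had too few counts to be tested. In serum alone 10 of the 14 rose, where 5.39% of all genes did. In 2i alone 3 fell (Usp17la, Usp17le and Pramel7), where 2.51% of all genes did. These falls were not shared by the lines: in 2i Usp17la averaged 0.919 CPM in pKO1 and 0.218 CPM in pKO2, against 0.655 CPM in WT1 and 2.40 CPM in WT2. For Usp17le the means were 0.836 and 0.471 CPM in pKO1 and pKO2, against 0.547 and 3.54 CPM in WT1 and WT2. For Pramel7 they were 0.501 and 0.178 CPM in pKO1 and pKO2, against 0.576 and 2.14 CPM in WT1 and WT2. WT2 was highest for all 3 genes, and pKO1 lay above WT1 for both Usp17l genes.

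Zscan4f, the most abundant of them, had 14.6, 26.6 and 70.7 CPM in pKO serum and 2.62, 5.03 and 7.08 CPM in WT serum libraries. The serum ranges did not overlap. In 2i it had 0.603, 2.54 and 3.21 CPM in pKO and 2.08, 3.98 and 9.35 CPM in WT libraries, which overlapped. The effect was 2.70 ± 0.30 in serum (adjusted p = 7.21e-06) and −1.05 ± 0.34 in 2i (adjusted p = 0.0918), and the interaction was 3.75 ± 0.45 (adjusted p = 4.99e-05). Zscan4d had 4.05, 5.28 and 10.5 CPM in pKO serum and 0.246, 0.665 and 1.89 CPM in WT serum libraries, with an interaction of 4.22 ± 0.56. Zscan4c (4.11 ± 0.65) and Zscan4b (3.79 ± 0.55) were close to it, and Zscan4a passed at an adjusted p of 0.0027. Usp17la had 3.40 ± 0.46 and Usp17le 3.03 ± 0.39, both with a 2i effect that passed on its own (−1.44 ± 0.35 and −1.14 ± 0.29). Both interaction calls were lost with WT1 as the only control line (2.38 and 1.63) and with lines as replicates (3.35 and 3.14). Pramel19 had 3.39 ± 0.68, and the predicted genes Gm4971 and Gm2022 had 3.78 ± 0.62 and 3.74 ± 0.78. Pramel19, Gm4971 and Gm2022 also lost their calls with WT1 as the only control line and with lines as replicates. Gm2022 lost its call without replicate 1 of WT1 in 2i as well. The call of Gm2022 was further lost with pKO2 as the only deletion line and with no library numbered 3. With all libraries of the pKO, WT and inverted-promoter lines in the fit, Gm2022 did not pass either. By family name, a grouping made after the values were seen, all 5 Zscan4 rows, 2 of 4 Usp17l rows and 2 of 9 Pramel rows passed. Every tested member of the 3 families was positive, but the lines were mixed for Pramel1, Pramel6, Pramel7, Pramel13, Pramel14, Pramel30 and Usp17lb. In each of these the serum minus 2i difference of a pKO line lay below that of WT1, and that of WT2 was the lowest. For Pramel6 it was −1.07 in pKO1 and −0.68 in pKO2, against −0.33 in WT1 and −5.44 in WT2.

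The WT lines did not behave alike for these genes. Zscan4f averaged 6.41 CPM in serum and 2.18 CPM in 2i in WT1, but 3.48 CPM in serum and 7.87 CPM in 2i in WT2. The serum minus 2i difference of Zscan4f was 3.86 in pKO1 and 3.99 in pKO2, against 1.55 in WT1 and −1.19 in WT2. Both pKO lines lay above both WT lines, yet the WT lines differed from each other by a tested −2.74. With WT1 as the only control line the values were 2.36 for Zscan4f, 2.17 for Zscan4d, 2.48 for Zscan4c, 2.39 for Zscan4a and 2.13 for Zscan4b, and none passed. With WT2 alone they were 5.10, 6.22, 5.70, 5.59 and 5.42. All 5 held their call when any 1 library was left out and lost it with lines as replicates. Replicate 3 of pKO1 in serum held the highest value of Zscan4f, at 70.7 CPM.

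Copies of Zscan4 are nearly identical, so the split of counts among copies is uncertain. The calls of the 5 Zscan4 rows may share reads and are not independent. The strand setting of the counting is not given in the sources used here. The sequences before the starts of Zscan4c and Zscan4d are shown to make the likeness of their promoters visible. They lie before the annotated transcripts, whose own likeness was not measured here. Each line gives the 150 bases before the annotated start from the RefSeq promoter table (GRCm38.p6, while the counts used mm9), 5′ to 3′ on the gene's strand, with TATAAA in capitals. Zscan4c lies at chr7:11005595-11005744 on the plus strand and Zscan4d at chr7:11166149-11166298 on the minus strand.
Zscan4c: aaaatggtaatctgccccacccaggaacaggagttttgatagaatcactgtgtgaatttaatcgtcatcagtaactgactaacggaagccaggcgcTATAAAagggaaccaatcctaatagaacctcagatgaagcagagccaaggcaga
Zscan4d: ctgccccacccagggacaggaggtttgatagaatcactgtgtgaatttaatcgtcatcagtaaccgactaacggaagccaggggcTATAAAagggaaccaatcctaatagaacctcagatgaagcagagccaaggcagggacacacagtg
All 4 Zscan4 genes in that table (b, c, d and f) hold TATAAA, searched on both strands, within 300 bases around the start, as do 13.6% of all 32851 promoters in the table. Over the aligned bases the pairs were 95.3% to 99.3% identical, with Zscan4c and Zscan4f the closest at 275 of 277 bases.

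**Figure D3:**
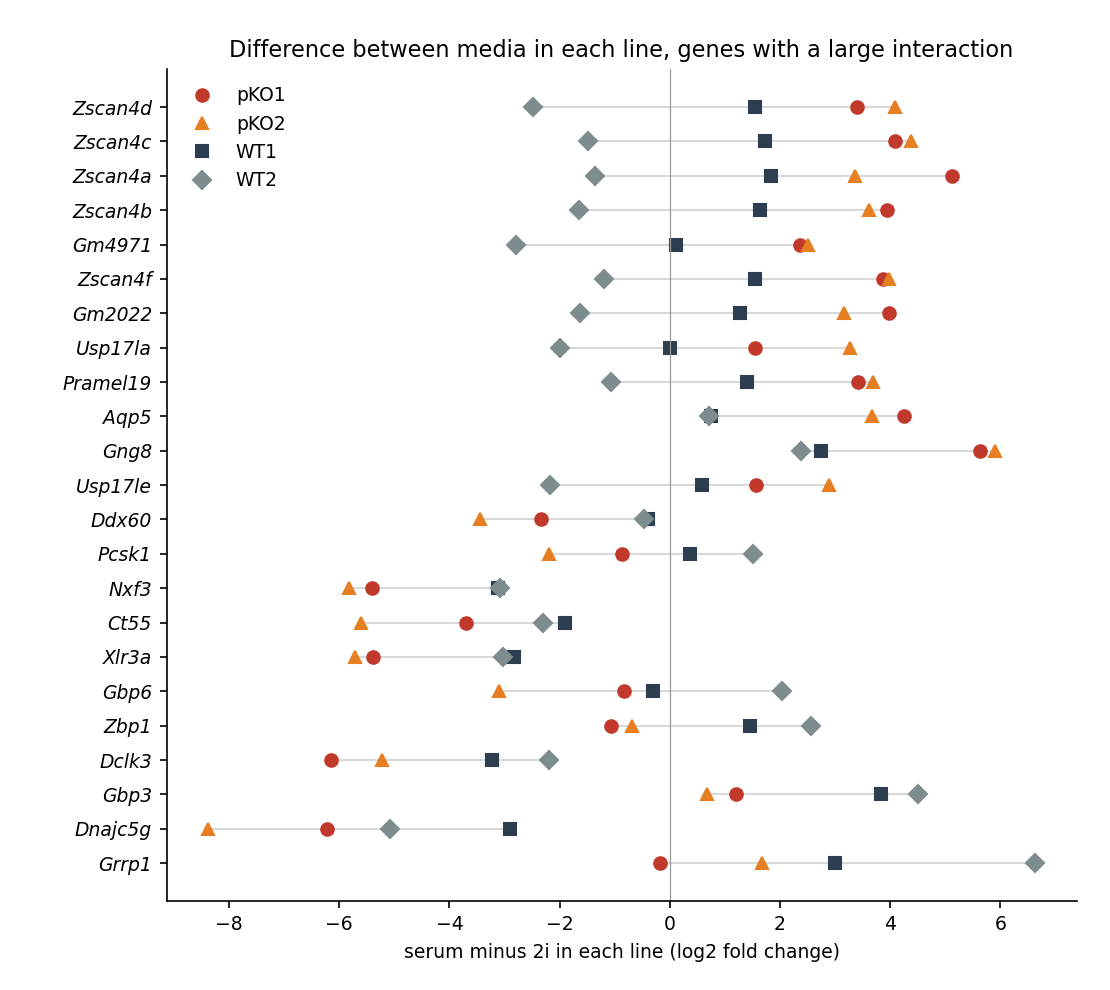
Serum minus 2i log2 fold change in each line for genes with the highest and the lowest interaction under the naming rule, in order of the interaction. Red and orange symbols (pKO1, pKO2) lie on 1 side of the dark and grey symbols (WT1, WT2) in every gene, as the rule requires; for the Zscan4 genes WT1 and WT2 lie on opposite sides of 0.

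In the list of interferon response and antigen presentation genes, 3 of 20 tested members (15%) passed, where 2.15% of all genes did. All 3 were lower (Irf1, Ddx60 and Psmb9), and the list's median was −0.19. Interferon gamma acts through IRF1, among other factors, on genes for GTP-binding proteins of the Gbp family and for the immunoproteasome, which cuts peptides for display on MHC class I. Irf1, the transcription factor of this response, had 27, 34 and 61.6 CPM in pKO serum and 56.2, 87.2 and 139 CPM in WT serum libraries. In 2i it had 17.5, 20.2 and 21.8 CPM in pKO and 14.6, 16.2 and 17.5 CPM in WT libraries. The serum ranges overlapped slightly, with pKO below WT in the medians, and in 2i the order of the medians was the opposite. Irf1 fell in serum (−1.24 ± 0.16, adjusted p = 4.29e-05), and its interaction was −1.55 ± 0.23 (adjusted p = 0.000618).

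The GTPase gene Gbp3 had 1.94, 3.52 and 4.04 CPM in pKO serum and 6.7, 18 and 40.5 CPM in WT serum libraries. Below 3 CPM in every 2i library, it had 0.505 to 2.93 CPM in pKO 2i and 0.189 to 1.86 CPM in WT 2i libraries. The serum ranges did not overlap, and the 2i ranges did. Its interaction was −3.23 ± 0.64 (adjusted p = 0.00912). Zbp1, a sensor of left-handed nucleic acids, had 2.75, 3.32 and 4.14 CPM in pKO serum and 10.8, 14.9 and 20.1 CPM in WT serum libraries, and an interaction of −2.89 ± 0.52 (adjusted p = 0.00443). Gbp6 (−2.83 ± 0.70), the helicase-like Ddx60 (−2.46 ± 0.57) and the immunoproteasome subunit Psmb9 (−1.84 ± 0.38) also passed. Gbp3 and Zbp1 passed with lines as replicates too (adjusted p = 0.0168 and 0.0246). With WT1 as the only control line none of Irf1 (−1.25), Gbp3 (−2.90), Zbp1 (−2.34), Gbp6 (−1.67), Ddx60 (−2.51) and Psmb9 (−1.87) passed. Gbp6 also lost its call in 13 and Ddx60 in 6 of the 24 fits without 1 library.

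Members of the interferon list that did not pass included Ifit1 (−0.10), Isg15 (−0.63) and Bst2 (−0.08). The MHC class I genes H2-K1 (−0.07) and B2m (0.38) did not pass either, nor did the row shared by H2-D1 and LOC547349 (0.82). Further genes of this kind were picked after their values were seen. Among them Psmb10 (−1.67 ± 0.24, adjusted p = 0.000395), the proteasome activator subunits Psme1 (−1.25) and Psme2 (−1.50), the peptide-trimming enzyme Erap1 (−1.26), Gbp9 (−2.13), Nmi (−2.42), Parp9 (−1.34), Parp12 (−1.24), Parp14 (−1.52) and Dtx3l (−1.06) all passed. By family name, 3 of 7 Gbp rows and 2 of 3 immunoproteasome subunits passed, and every tested member of both was negative. The lines were mixed for Gbp2b, which did not pass and had at most 0.258 CPM in pKO 2i and 0.246 CPM in WT 2i libraries. Its serum minus 2i difference was 7.88 in pKO1 and 6.32 in pKO2, against 7.83 in WT1 and 8.37 in WT2. In serum Gbp6 averaged 0.463 CPM in pKO1 and 0.105 CPM in pKO2, against 0.379 CPM in WT1 and 1.74 CPM in WT2. Feeder and macrophage genes, which could bring such transcripts from other cells, had the opposite order in serum. Macrophage genes summed to 339, 722 and 826 CPM in pKO serum and 285, 367 and 631 CPM in WT serum libraries, and their part in the result was not tested.

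Gbp3, Ddx60 and Irf1 hold letters near their starts that resemble binding motifs of interferon-regulated factors, and they are shown for that reason. Each line again gives the 150 bases before the start from the RefSeq table (GRCm38.p6), 5′ to 3′ on the gene's strand. Capitals mark the core of the interferon-stimulated response element (GAAA, any 2 bases and GAAA again) in Gbp3 (chr3:142559894-142560043, plus strand) and Ddx60 (chr8:61927937-61928086, plus strand), and TTCNNNGAA, the interferon gamma-activated site, in Irf1 (chr11:53769864-53770013, plus strand).
Gbp3: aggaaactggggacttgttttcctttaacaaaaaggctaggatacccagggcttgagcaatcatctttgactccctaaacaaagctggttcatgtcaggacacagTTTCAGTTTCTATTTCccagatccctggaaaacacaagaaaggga
Ddx60: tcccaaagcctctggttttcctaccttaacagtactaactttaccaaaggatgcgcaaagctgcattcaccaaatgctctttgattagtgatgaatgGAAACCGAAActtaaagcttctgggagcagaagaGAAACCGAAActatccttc
Irf1: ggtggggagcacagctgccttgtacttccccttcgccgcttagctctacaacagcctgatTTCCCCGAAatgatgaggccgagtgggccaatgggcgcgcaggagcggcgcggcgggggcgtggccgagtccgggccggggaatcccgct
In Gbp3 the capitals are a pair of overlapping matches on the other strand. Both strands were searched, and windows of 300 bases from the table held this core in 3.44% and TTCNNNGAA in 8.3% of 32851 promoters. Of the 10 genes searched, 7 had an entry; 2 of these held the core and 1 held TTCNNNGAA. A match is a description of letters, not a measured site.

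Most listed genes of the pluripotent state did not pass. In the naive pluripotency list 2 of 15 members (13.3%) passed, both higher, where 2.15% of all genes passed. Tbx3, a T-box factor of naive cells, had 18.9, 52.6 and 84.5 CPM in pKO serum, 8.98, 23.3 and 44.1 CPM in WT serum, 220, 250 and 332 CPM in pKO 2i and 246, 284 and 393 CPM in WT 2i libraries. The ranges overlapped in both media. Its interaction was 1.46 ± 0.15 (adjusted p = 7.7e-06), with an effect of 1.23 ± 0.11 in serum. The lines of each genotype differed: in serum Tbx3 averaged 27.9 CPM in pKO1 and 78.5 CPM in pKO2, against 40.6 CPM in WT1 and 9.79 CPM in WT2. It lost its call with WT1 as the only control (0.68) or pKO1 as the only deletion line (0.52). Klf2, a Krüppel-like factor of naive cells, had 0.51 ± 0.13 (adjusted p = 0.0456) and lost its call in 20 of 24 fits without 1 library. None of the 12 core pluripotency genes passed, with Nanog at 0.02 ± 0.17 and Pou5f1 at 0.09 ± 0.14.

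Dnmt3l, the cofactor that stimulates the de novo DNA methyltransferases, had fitted effects of opposite sign in the 2 media. It had 184, 275 and 478 CPM in pKO serum and 106, 218 and 349 CPM in WT serum libraries, which overlapped. In 2i it had 19.6, 25.7 and 35.2 CPM in pKO and 53.4, 62.6 and 76.1 CPM in WT libraries. All pKO libraries lay below all WT libraries there, as for 1.1% of all genes tested. Its fitted effect in edgeR was 0.49 ± 0.11 in serum (adjusted p = 0.00614) and −1.32 ± 0.11 in 2i (adjusted p = 6.33e-07). The interaction was 1.81 ± 0.16 (adjusted p = 7.78e-07). The call held with each line left out in turn and in all 24 fits without 1 library, and was lost with lines as replicates (1.79). In serum a rise was not shared by the lines, at 197 CPM in pKO1 and 394 CPM in pKO2, against 326 CPM in WT1 and 121 CPM in WT2. Tet2, a 5-methylcytosine oxidase, had 0.85 ± 0.15 (adjusted p = 0.00328) and lost its call with WT1 alone (0.54). The methyltransferases Dnmt3a (−0.01 ± 0.20) and Dnmt3b (−0.42 ± 0.17) did not pass.

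Of 17 formative and primed epiblast genes, 3 were higher and 1 was lower (23.5%, against 2.15% of all genes tested). The list's median was −0.01. The 3 higher were Dnmt3l, the growth factor gene Fgf15 (1.95 ± 0.37, adjusted p = 0.0058) and the grainyhead factor gene Grhl2 (0.94 ± 0.18, adjusted p = 0.00677). The lower member was Lef1. Fgf15 and Grhl2 passed in 2i and not in serum. Fgf15 had 0.516, 1.03 and 1.66 CPM in pKO 2i and 2.17, 3.14 and 4.22 CPM in WT 2i libraries, with no overlap, while its serum values overlapped (37 to 55.9 CPM in pKO, 18.1 to 56.8 CPM in WT). Grhl2 fell in 2i (−0.86 ± 0.14) but had 0.08 ± 0.12 in serum, and with WT1 as the only control line its interaction was 0.05. Fgf15 held its call with either WT line, and lost it with pKO1 as the only deletion line (1.56), with all 45 libraries of the pKO, WT and inverted-promoter lines sharing the fit (1.92) and with lines as replicates (1.89). Esrp1, an epithelial splicing factor, had the same shape (−1.54 ± 0.29 in 2i, −0.10 ± 0.14 in serum, interaction 1.44 ± 0.32), and with Grhl2 made 2 of 16 epithelial genes past the test. Esrp1 lost its call without replicate 3 of pKO2 in 2i (1.31 to 1.72 over the 24 fits). It was also lost with WT1 as the only control line and with pKO1 as the only deletion line. With lines as replicates, or with all 45 libraries in the fit, Esrp1 did not pass either.

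Of 14 targets and components of Wnt signalling, 4 (28.6%) passed, where 2.15% of all genes did. All 4 were lower (Axin2, Tcf7, Sp5 and Lef1), while 6 of the 14 values were positive and the list's median was −0.19. Axin2, a feedback inhibitor of the pathway, had 20.3, 29.3 and 41.5 CPM in pKO serum and 40.1, 46.9 and 93.1 CPM in WT serum libraries. In 2i it had 36.8, 43 and 48.8 CPM in pKO and 34, 39 and 50.3 CPM in WT libraries. The serum ranges barely overlapped and the 2i ranges lay on each other. Its interaction was −0.97 ± 0.23 (adjusted p = 0.0298). Tcf7, a transcription factor that binds beta-catenin, had 57.4, 72.2 and 102 CPM in pKO serum and 119, 143 and 188 CPM in WT serum libraries, without overlap, and −0.80 ± 0.17 in the interaction (adjusted p = 0.0151). Sp5, a direct target and repressor in the pathway, had −1.89 ± 0.47, and Lef1, a partner of beta-catenin, −0.82 ± 0.15. In serum alone 6 of the 14 fell, where 6.22% of all genes did, and in 2i, where the GSK3 inhibitor acts on this pathway in every line, none passed. With WT1 as the only control line Axin2 (−0.88), Tcf7 (−0.71) and Sp5 (−1.41) lost their calls, while Lef1 (−1.81) kept it. With WT2 as the only control line Lef1 turned to 0.13. Axin2 lost its call in 8 and Sp5 in 13 of the 24 fits without 1 library, and both lost it with the feeder score as a covariate (−0.88 and −1.82).

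Single genes passed in other signalling lists. Etv4, an ETS factor induced by ERK, had 103, 118 and 153 CPM in pKO 2i and 22.1, 70.3 and 181 CPM in WT 2i libraries, and its interaction was −1.24 ± 0.16. The WT lines differed in 2i, where Etv4 averaged 22.4 CPM in WT2 and 144 CPM in WT1, and with WT1 as the only control line it was 0.08. Acvr2b, an activin and Nodal receptor, had −0.65 ± 0.17 (adjusted p = 0.0423) and lost its call in 15 of 24 fits without 1 library. It was the only one of 14 Nodal pathway genes to pass. No BMP gene passed of 14.

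Primitive streak and mesendoderm genes had the lowest median of the 33 lists, −1.31, but only Sp5 of 19 tested passed. The brachyury gene T had 25.8, 49.6 and 157 CPM in pKO serum and 78, 126 and 387 CPM in WT serum libraries, but 0.719 to 1.87 CPM in pKO 2i and 0.254 to 1.52 CPM in WT 2i libraries. The interaction of T was −1.94 ± 0.75 (adjusted p = 0.183), that of the homeobox gene Mixl1 −1.79 ± 0.77 and that of Evx1 −2.25 ± 0.83. In serum alone 12 of the 19 fell, where 6.22% of all genes did, among them T (−1.39 ± 0.34), Mixl1 (−2.04 ± 0.40) and Evx1 (−1.88 ± 0.36), and in 2i 1 fell, which was Eomes.

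Hox genes, which pattern the body axis and are silenced in stem cells, had a median of 1.05. Of their 33 values 32 were positive, as were 8092 of 14858 over all genes tested. Of the 33 genes 2 (6.06%) passed, where 2.15% of all genes did. They were Hoxa9 (2.88 ± 0.71, adjusted p = 0.0352) and Hoxa7 (1.63 ± 0.42, adjusted p = 0.0415). Hoxa7 had 0.839, 2.39 and 2.9 CPM in pKO serum, 0.539, 0.835 and 1.37 CPM in WT serum, 0.603 to 1.07 CPM in pKO 2i and 0.775 to 1.34 CPM in WT 2i libraries. Both calls were fragile, since Hoxa9 lost its call in 13 and Hoxa7 in 19 of the 24 fits without 1 library, and both lost it with the feeder score as a covariate (2.58 and 1.43). Fibroblasts also express Hox genes, and the feeder list had a median of 0.61 with 23 of 24 values positive and none past the test. The part of feeder RNA in the Hox values was not tested further. Tfap2a, a neural crest and surface ectoderm factor (1.34 ± 0.30), passed alone in its list of 9. Its call was lost with either WT line as the only control line and with pKO1 as the only deletion line. With lines as replicates, or with all 45 libraries of the pKO, WT and inverted-promoter lines in the fit, Tfap2a did not pass either.

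**Figure D4:**
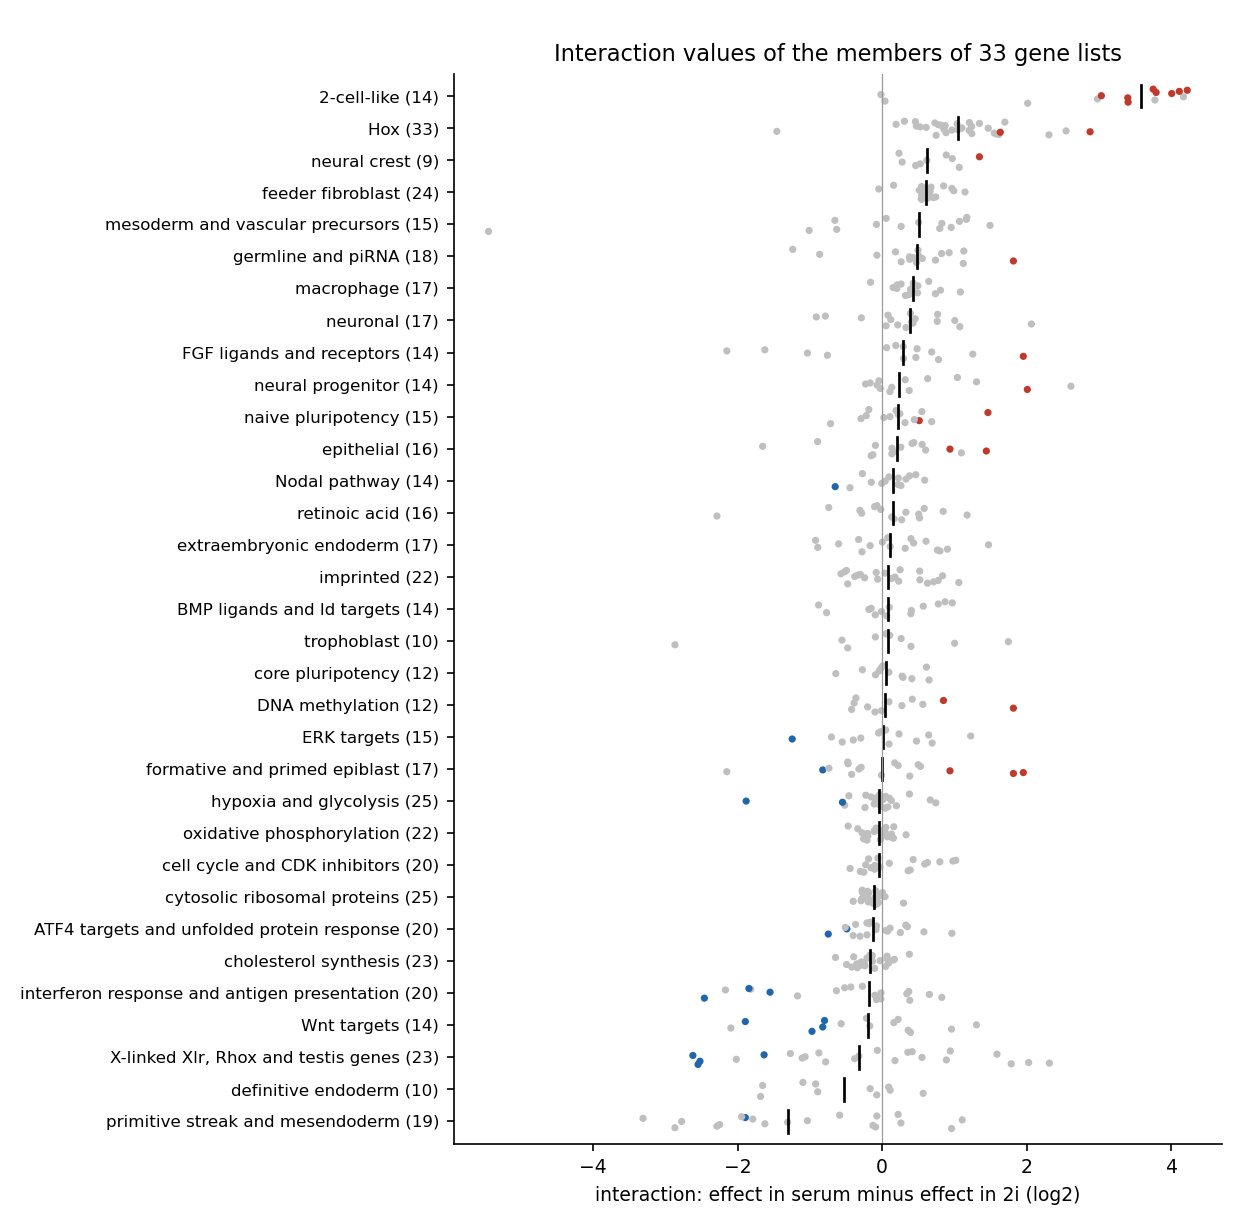
Interaction values of the tested members of 33 gene lists, 1 point a gene, with the number tested after each name and a black bar at the list's median. Coloured points passed at an adjusted p of 0.05 (red higher, blue lower); the 2-cell-like list stands at the top with a median of 3.57 and the primitive streak list at the bottom with −1.31.

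Other genes under the naming rule had low counts. Aqp5, a water channel, had 0.227, 0.361 and 0.534 CPM in pKO 2i and 0.591, 1.14 and 5.08 CPM in WT 2i libraries without overlap, and an interaction of 3.23 ± 0.77. It passed with lines as replicates (adjusted p = 0.0436) but lost its call in 10 of 24 fits without 1 library. Pcsk1, a prohormone convertase, had −2.47 ± 0.48, and lost its call with WT1 as the only control line (−1.91). Gng8, a G protein subunit, had 3.21 ± 0.74, and lost its call without replicate 1 of WT1 or replicate 3 of WT2 in 2i (2.68 to 3.54 over the 24 fits). It was also lost with WT1 as the only control line, with either pKO line alone and with all 45 libraries in the fit. The kinase gene Dclk3 (−2.98 ± 0.67), the chaperone gene Dnajc5g (−3.32 ± 0.69) and Grrp1 (−4.07 ± 1.02) were under 3 CPM in every serum library, and Grrp1 lost its call in 16 of the 24 fits. Dclk3 lost its call without replicate 1 of WT2, replicate 2 of pKO1 or replicate 3 of WT1 in serum (−4.70 to −2.68 over the 24 fits), and Dnajc5g lost it without replicate 2 of WT2 in serum. With lines as replicates Pcsk1, Gng8, Dclk3, Dnajc5g and Grrp1 lost their calls. Each of these genes, and Aqp5, also lost its call in some fit with a single WT or pKO line.

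Lists with no member past the test were core pluripotency, mesoderm, definitive endoderm, BMP, imprinted, cholesterol synthesis, neuronal, feeder fibroblast, macrophage, trophoblast, extraembryonic endoderm, retinoic acid, cell cycle, oxidative phosphorylation and cytosolic ribosomal proteins. Of all genes tested, 2474 had an unadjusted p under 0.05.

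The spread of calls over chromosomes was not tested. Chromosome 11 held 26 of the 135 lower calls and 10 of the higher ones among 1237 genes tested, with a median of −0.09, and chromosome 10 held 21 higher and 2 lower of 705, with a median of 0.14. The share called was 2.91% on chromosome 11 and 3.26% on chromosome 10, against 2.15% of all genes tested. Irf1, Etv4, Axin2 and Tcf7 lie on chromosome 11. Levels of chromosome 11 genes also differed between lines: their median log2 deviation from the mean of the 4 lines in serum was −0.20 in pKO1, −0.10 in pKO2, 0.05 in WT1 and 0.25 in WT2. In 2i these deviations were −0.04, −0.16, −0.06 and 0.26. Chromosome 8, which holds Klf2, Ddx60 and Psmb10, had deviations of 0.06 in pKO1, −0.08 in pKO2, −0.17 in WT1 and 0.20 in WT2 in serum, and of 0.04, −0.16, −0.13 and 0.26 in 2i. WT2 was highest on both chromosomes in each medium. A line difference of equal size in both media cancels in the interaction. The part of line differences of unequal size in the calls there was not tested.

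Differences between lines limit all these calls. The 2 WT lines differed from each other in their medium difference for 135 genes (0.909%), and the pKO lines for 90 genes (0.606%). Of the 320 called genes, 30 and 19 were among them. These tests set 1 line against 1, while the interaction averages 2 lines of each genotype, so the counts were made at lower power. For Ldhb the SE was 0.23 in both line tests and 0.16 in the interaction. Both pKO lines lay above both WT lines for 165 of the 185 higher genes, as for 22.8% of all genes tested, and below them for 121 of the 135 lower genes, as for 15.2% of all genes tested; both shares use the values that made the calls. With WT1 as the only control line 32 genes passed and with WT2 as the only control line 414 did. With the 4 lines as the replicates, 15 genes passed, of which 7 were also among the 320, including Xlr3a, Nxf3, Ldhb, Gbp3, Zbp1 and Aqp5. Of the 48 called genes named by the rule, 31 held their call whichever library was left out, 39 held it with WT2 and 8 with WT1 as the only control line, 28 held it with pKO1 and 30 with pKO2 as the only deletion line, and 3 held it in every alternative, namely Xlr3a, Nxf3 and Ldhb.

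**Figure D5:**
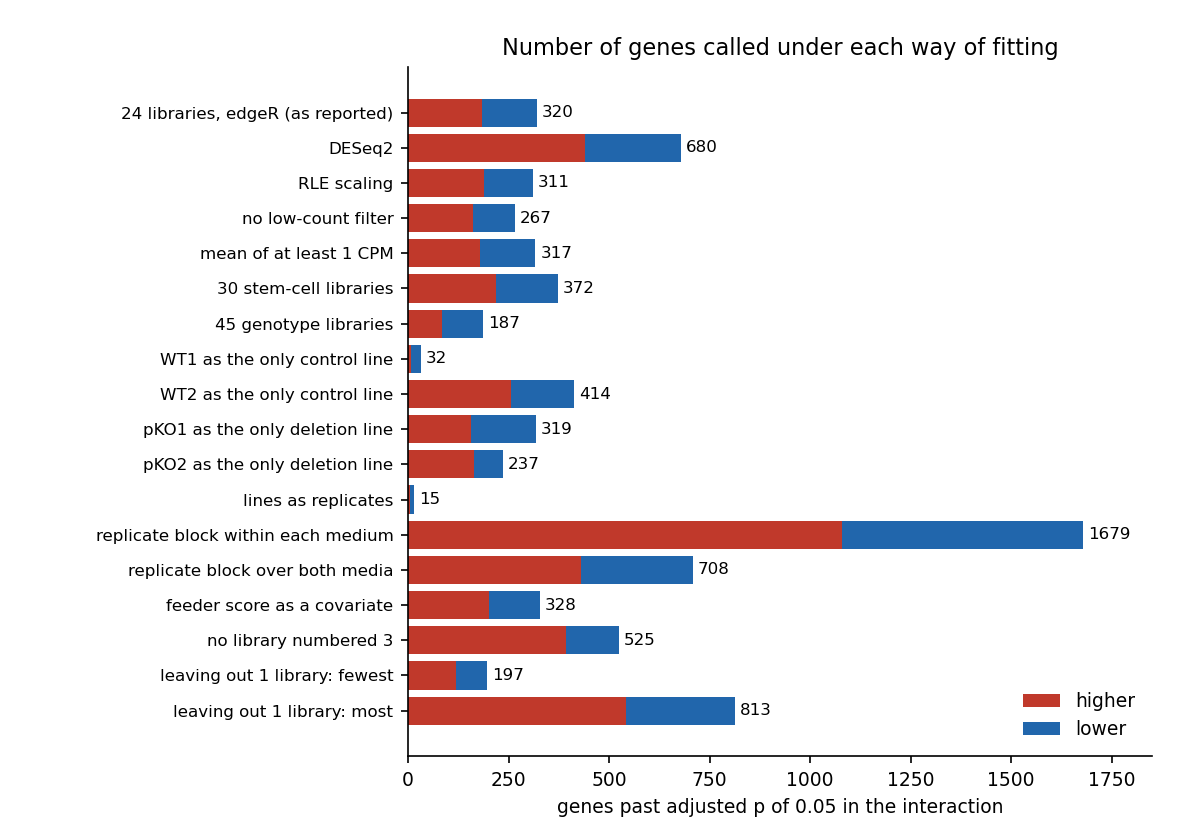
Number of genes past an adjusted p of 0.05 in the interaction under each way of fitting, higher in red and lower in blue. The count ran from 15 with lines as replicates and 32 with WT1 as the only control line to 1679 with a replicate block within each medium, against 320 as reported.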

How the data were processed

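The authors deposited RSEM expected counts per gene for each library. Per the submitters' processing notes, RSEM was used with mm9; its version, the aligner and the strand setting are not given in the sources used here. Libraries were made from polyadenylated RNA with the Lexogen SENSE kit, per the labels' protocols. The expected counts were rounded to whole numbers. Rows without a gene name (28 of 24990, 0.674% to 4.35% of counts) were left out. The 24 libraries were fitted together in edgeR 4.0.16 (R 4.3.3) with 1 mean per line and medium (8 means), TMM scaling and filterByExpr, and contrasts were tested by quasi-likelihood F tests with Benjamini-Hochberg adjustment at 0.05 over 14858 genes. The SE is the absolute log2 value divided by the square root of F. The script was tested on simulated data.

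Named genes were Eomes, Platr11 and their neighbours, the 12 highest and 12 lowest called genes that averaged 1 CPM or more in any arm and had both pKO lines on the same side of both WT lines and up to 4 called members of each list; further members illustrate lists that did not pass. A few named genes are not reported here. Of 613 list memberships in 33 lists, 576 were tested. The comparison, lists and rules were chosen with earlier results of these data known. Chromosome medians used log2(CPM + 0.5) over genes averaging 5 CPM or more. Alternatives were DESeq2 1.42.0, RLE scaling, other filters and sample sets, each line alone, lines as replicates on summed counts, replicate blocks and leaving out each library; a feeder score as a covariate and leaving out libraries numbered 3 were added after seeing the data.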

Additional observations from a re-analysis of the deposited data

Results flagged for a closer look

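The interaction itself is a difference between media, and 320 genes passed its test, 185 higher and 135 lower. Among 208 groups of 6 libraries examined for named genes, 17 held a library far from the others. The number to be had by chance is not known, since each group holds 2 lines and the genes were picked by their values. Replicate 3 of pKO1 in serum was high for Zscan4f (70.7 CPM), Zscan4b (27.6 CPM), Zscan4a (22.4 CPM), Pramel19 (5.16 CPM), Gm2022 (4.83 CPM) and Gm4971 (2.53 CPM). Replicate 1 of pKO2 in serum stood apart for Ldhb (157 CPM), Sp5 (42.7 CPM), Mthfd2 (36.1 CPM), Psmb9 (2.74 CPM) and Dclk3 (0.304 CPM). Replicate 2 of pKO1 in 2i was high for Usp17le (1.43 CPM) and Pramel19 (0.713 CPM), and replicate 1 of pKO1 in 2i was low for Ct55 (7.44 CPM). Pcsk1 had 14.1 CPM in replicate 3 of WT2 in serum, Grrp1 had 2.69 CPM in replicate 3 of WT1 in serum, and Gng8 had 0.945 CPM in replicate 1 of WT1 in 2i.

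Lines of the same genotype differed in their own medium difference for some named genes, by an adjusted test in edgeR. For WT2 minus WT1 the log2 values were −4.05 for Zscan4d, −3.29 for Zscan4b, −2.74 for Zscan4f, −2.76 for Usp17le, −1.53 for Tbx3, −1.46 for Dnmt3l, −1.93 for Lef1, −1.72 for Grhl2 and 2.70 for Etv4. For pKO2 minus pKO1 they were 1.88 for Tbx3 and 1.46 for Dnmt3l.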

How the results depend on the processing

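The count of 320 interaction genes moved by over 1.5 times with DESeq2 (680: 440 higher, 240 lower), 45 genotype libraries (187, 85 higher), WT1 as the only control line (32: 7 higher, 25 lower), lines as replicates (15: 5 higher, 10 lower) and no library numbered 3 (525, 394 higher); with pKO2 as the only deletion line 72 were lower. Over fits without 1 library it ran from 197 (without replicate 2 of pKO1 or replicate 3 of WT1, both in serum) to 813 (without replicate 3 of pKO2 in serum), with 120 to 543 higher and 75 to 270 lower; it was 555 without replicate 3 of pKO1 in serum and 202, 203, 209 and 209 without replicate 3 of pKO1 or pKO2 in 2i, replicate 2 of pKO2 in 2i or replicate 3 of WT2 in serum. With a replicate block, 1679 passed within each medium (1079 higher, 600 lower) and 708 over both media (429 higher, 279 lower). Residuals of same-numbered libraries of different lines correlated at over 0.1 in 18 of 18 pairs in 2i and 9 of 48 across media. In serum 16 of 18 pairs did (lowest 0.088, median 0.29). In this check 23 of 24 libraries correlated best with their own number within a medium, a hint from the data and not from the design. The bar for pairing (every pair over 0.1) was met in 2i and narrowly missed in serum. The interaction was reported without a block, although a block within each medium does not need pairing across media. Any effect shared by same-numbered libraries therefore stays in its error. With either block all 320 genes also passed. Statements that a gene or a list did not pass refer to the fit without a block, so some of these genes may pass with one. The 1725 serum genes became 363 with WT1 only, 671 with pKO2 only, 6 with lines as replicates, 3927 and 2620 with the block within and over media, 1046 with the feeder covariate, and 849 to 3011 without 1 library. The 539 genes in 2i became 942 (DESeq2), 295 (45 libraries), 161 (WT1 only), 1551 (WT2 only), 41 (pKO1 only), 1 (lines as replicates), 1721 and 980 (block within and over media), 837 (feeder covariate), 102 (no library numbered 3) and 276 to 867 without 1 library. Eomes reversed with pKO2 only (0.14), without replicate 3 of WT2 in serum (0.06), with the feeder covariate (0.01) and with no library numbered 3 (0.11), and ran from −0.24 to 0.06 without 1 library. Platr11 reversed to −0.61 with no library numbered 3 and ran from 0.24 to 2.55. Golga4 reversed with pKO1 only (0.10), Lef1 with WT2 only (0.13) and Etv4 with WT1 only (0.08). The cause of these moves was not tested; leaving out lines or libraries also leaves fewer samples. RLE scaling moved the median over all genes to 0.049. Depth limits genes under about 1 CPM, where single counts decide a value.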

Other observations

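Genes that no list held were also among the 320, and those given here were chosen after their values were seen. On the lower side were the apelin ligand gene Apln, with a mean of 11.5 CPM in pKO serum and 42.7 CPM in WT serum libraries (interaction −1.93 ± 0.41, adjusted p in edgeR = 0.0143), and Gpc3, a heparan sulphate proteoglycan, with 51.3 and 104 CPM (−1.38 ± 0.28, adjusted p = 0.0114). Both are X-linked. On the higher side Ttn, the giant sarcomere protein, had medians of 46.8 CPM in pKO serum and 14.3 CPM in WT serum libraries, which did not overlap (1.59 ± 0.16, adjusted p = 5.69e-06). Mrgpra6, of a family of sensory neuron receptors, averaged 1343 CPM in pKO serum and 467 CPM in WT serum libraries (1.11 ± 0.26, adjusted p = 0.0271).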
